A study of Mus musculus with 18 samples.

Results

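T and B lymphocyte markers are mRNAs that bulk tissue owes mostly to lymphocytes, and 9 of the 24346 gene symbols in the deposited tables were taken as such by name: Cd3d, Cd3e, Cd3g, Cd4, Cd8a and Cd8b1 for T cells, and Cd79a, Cd79b and Ms4a1 for B cells. All 9 are present, once each. The study sequenced polyadenylated RNA of liver, intestine and lung from mice with sepsis, with and without hydrogen gas to breathe. All animals were 9-week-old male C57BL/6 mice that underwent cecal ligation and puncture (CLP), in which the tied and perforated cecum leaks gut bacteria into the abdomen. The H2 groups (H2 liver, H2 intestine and H2 lung) were exposed to 7% hydrogen from the time of surgery on, and the control groups (control liver, control intestine and control lung) had the surgery without the gas. Tissue was taken at 24 h, with n = 3 libraries per group and 18 in all. H2 mice were kept together in 1 cage inside a gas box, so housing and gas cannot be told apart. Sham-operated mice are not analysed here, so every value comes from a septic animal.

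The labels do not state whether libraries of 1 group come from separate mice, which organs share a mouse, or which stretch of the intestine was taken, and p values measure only the spread between these libraries. The organ markers were in place. Alb, the plasma protein made by hepatocytes, was at least 9335 FPKM in every liver library and at most 5.95 FPKM elsewhere. Vil1, of the gut brush border, was at least 332 FPKM in every intestine library and at most 0.45 FPKM elsewhere, and Sftpc, of alveolar type II cells, passed 1.17 FPKM only in the lung. Read totals are not used here, and the smallest steps in the values imply depths of 8.76 M to 15.9 M fragments per library. Depth was higher in the 3 H2 lungs, at 13.7 M, 15.9 M and 15.2 M, than in control lungs, at 10.4 M, 13 M and 12.2 M. The unit is FPKM, fragments per kilobase of transcript and per M mapped fragments, so levels of different genes can be compared per length.

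CD3 is the signalling part of the T cell antigen receptor: Cd3d, Cd3e and Cd3g encode its delta, epsilon and gamma chains, which carry the activation motifs that the receptor's own antigen-binding chains lack. CD4 and CD8 are coreceptors that bind MHC class II and class I and bring the kinase Lck to the receptor, and CD8 is made either as an alpha-beta pair, typical of conventional cytotoxic T cells, or as an alpha-alpha pair, typical of many T cells within the gut epithelium. Cd79a and Cd79b encode the paired signalling chains of the B cell receptor, and Ms4a1 encodes CD20, a surface protein of mature B cells that plasma cells lose. Lymphocytes die in large numbers during sepsis, and their loss from blood, spleen and gut is a known feature of the CLP model. Cd4 and Cd8a are also made by some dendritic cells and macrophages. In bulk tissue, fewer cells of a type and less RNA per cell cannot be told apart.

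The 3 CD3 genes lie side by side on chromosome 9 (mm10), with Cd3d at 44981786-44987339 on the plus strand, Cd3g at 44969572-44980431 and Cd3e at 44998740-45009627, both on the minus strand. The starts of Cd3d and Cd3g are 1355 bases apart and their transcripts run away from each other. Cd8b1 (71322788-71337494) and Cd8a (71373427-71379173) are neighbours on chromosome 6, both on the plus strand with starts 50639 bases apart. Cd4 is elsewhere on chromosome 6 (124864692-124888221), and the B cell genes are scattered, with Cd79a on chromosome 7, Cd79b on chromosome 11 and Ms4a1 on chromosome 19.

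Of the 9 genes, 5 had an entry in the promoter table taken from RefSeq (GRCm38.p6), namely Cd3d, Cd3e, Cd3g, Cd79a and Cd8a. The 250 bases before the starts of the divergent pair Cd3d and Cd3g are shown because these neighbours had the most alike values of all member pairs across lung libraries. That likeness includes the difference between H2 and control lungs, and it was lower across intestine libraries (Pearson r of 0.909 and 0.470). The windows are chr9:44981536-44981785 on the plus strand and chr9:44980432-44980681 on the minus strand, each read 5′ to 3′ toward its gene, and capitals mark the ETS core GGAA or TTCC and the GATA core AGATAA.
Cd3d: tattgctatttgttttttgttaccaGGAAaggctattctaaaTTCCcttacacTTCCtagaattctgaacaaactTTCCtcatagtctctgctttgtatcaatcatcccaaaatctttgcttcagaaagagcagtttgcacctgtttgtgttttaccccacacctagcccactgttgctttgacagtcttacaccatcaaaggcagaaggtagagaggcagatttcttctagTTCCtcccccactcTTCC
Cd3g: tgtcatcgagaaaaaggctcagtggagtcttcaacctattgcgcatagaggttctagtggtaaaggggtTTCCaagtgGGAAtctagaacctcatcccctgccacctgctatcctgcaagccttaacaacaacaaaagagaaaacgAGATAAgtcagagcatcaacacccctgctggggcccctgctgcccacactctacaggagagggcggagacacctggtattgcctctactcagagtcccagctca

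The Cd3d window held 6 ETS cores and the Cd3g window 2 of them and 1 GATA core, and all matches were counted on both strands. An ETS core was present in 5 of 5 member windows, beside 93.4% of 32851 promoters of the same length, and the E-box CANNTG in 5 of 5 beside 66.2%. The GATA core AGATAA (or TTATCT) was found in 1 of 5, that of Cd3g, beside 9.99% of promoters. The octamer ATGCAAAT (1.60% of promoters), a palindromic EBF1 site (0.779%) and TATAAA (12.4%) were in none of the 5.

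In the liver the markers were at the edge of detection in both groups. Cd3d read 0.0620, 0.0760 and 0.0800 FPKM in H2 livers, against 0.0660, 0.0680 and 0.0720 FPKM in control livers. Read against each library's depth, these are 1 step each, a step being the smallest nonzero value of the gene and worth about 1 fragment. No liver held more than about 1 fragment of Cd3d, Cd3e, Cd3g or Cd8b1. Cd79b was the highest member, with 0.210, 0 and 0.182 FPKM in H2 livers, against 0.301, 0.0770 and 0.0820 FPKM in control livers, which are 3, 0 and 2 steps against 4, 1 and 1. Cd79a had 4, 0 and 1 steps in H2 livers and 4, 0 and 0 in control livers. Ms4a1 was at 0 in the 3 H2 livers and at 0, 2 and 1 steps in control livers; with so few fragments no fold is given. Of the 54 values of 9 genes in 6 livers, 45 were at 0 or 1 step, and none was more than 0.0700 of a step from a whole number. The value was 0 for 12 of 27 in H2 livers and for 8 of 27 in control livers.

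**Figure D1:**
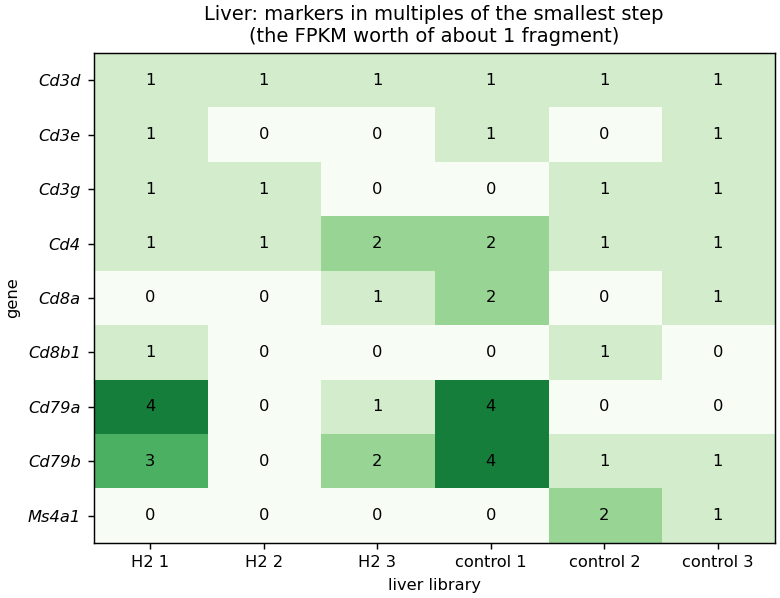
Liver libraries (columns, H2 left of control) against the 9 markers (rows), each cell giving the FPKM value as a multiple of the gene's smallest nonzero step, worth about 1 fragment. No value passes 4 steps, and the highest are those of Cd79a and Cd79b in the libraries numbered 1 of both groups.

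All 9 genes fell under the minimum mean of 1 FPKM there, so no H2 difference of a lymphocyte marker was detectable in the liver at this depth. Ptprc, which encodes CD45 of all leukocytes, read 2.53, 2.22 and 2.72 FPKM in H2 livers, against 2.16, 2.07 and 2.04 FPKM in control livers. Every H2 liver was above every control liver, as for 12.2% of 10041 genes tested there (13.1% were lower in this way and 25.3% did not overlap), and the log2 difference was 0.17 ± 0.11 (SE, n = 3 each; limma, adjusted p = 0.377). Only 3 of the 21 T cell receptor signalling and identity genes in the tables could be tested in the liver. Limma called 0 of them, where it called 0.0199% of all genes (2 genes, both higher), and 2 had an unadjusted p under 0.05, where 21% of all genes did. Cd28, a costimulatory receptor, read 3.56, 3.09 and 2.25 FPKM in H2 livers, against 8.71, 3.64 and 14.7 FPKM in control livers (adjusted p = 0.192). Trat1, a receptor-associated adaptor, read 0.291, 4.14 and 0.191 FPKM in H2 livers, against 26.9, 2.74 and 10.5 FPKM in control livers (adjusted p = 0.188). These levels stood beside CD3 genes at about 1 fragment, and which cells made these mRNAs was not tested.

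Across organs, all 9 markers were called higher in the lung than in the liver and higher in the intestine than in the liver (limma on log2(FPKM + 1), all 18 libraries, adjusted p under 0.05). The background is large, since 89.1% of 14561 genes were called between lung and liver (78.7% higher, 10.5% lower) and 79.1% between intestine and liver (64.5% higher, 14.6% lower), and the median over all genes was 1.15 and 0.62. The members' median was 1.42 for lung over liver and 1.22 for intestine over liver. After median-of-ratios scaling the medians over all genes were 0.11 and 0.05. The 8 markers that could be tested under it were all called higher than in the liver in both comparisons. Of 14170 genes, 5956 were then called higher and 5141 lower between lung and liver, and 5292 and 4768 between intestine and liver. Under quantile normalization the lung-over-liver differences of Cd4 (0.17), Cd8a (0.33) and Ms4a1 (0.68) were no longer called, with adjusted p of 0.294, 0.0580 and 0.0746. With a pseudocount of 5 the call of Cd8b1 between intestine and liver was lost (0.15, adjusted p = 0.0594).

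**Figure D2:**
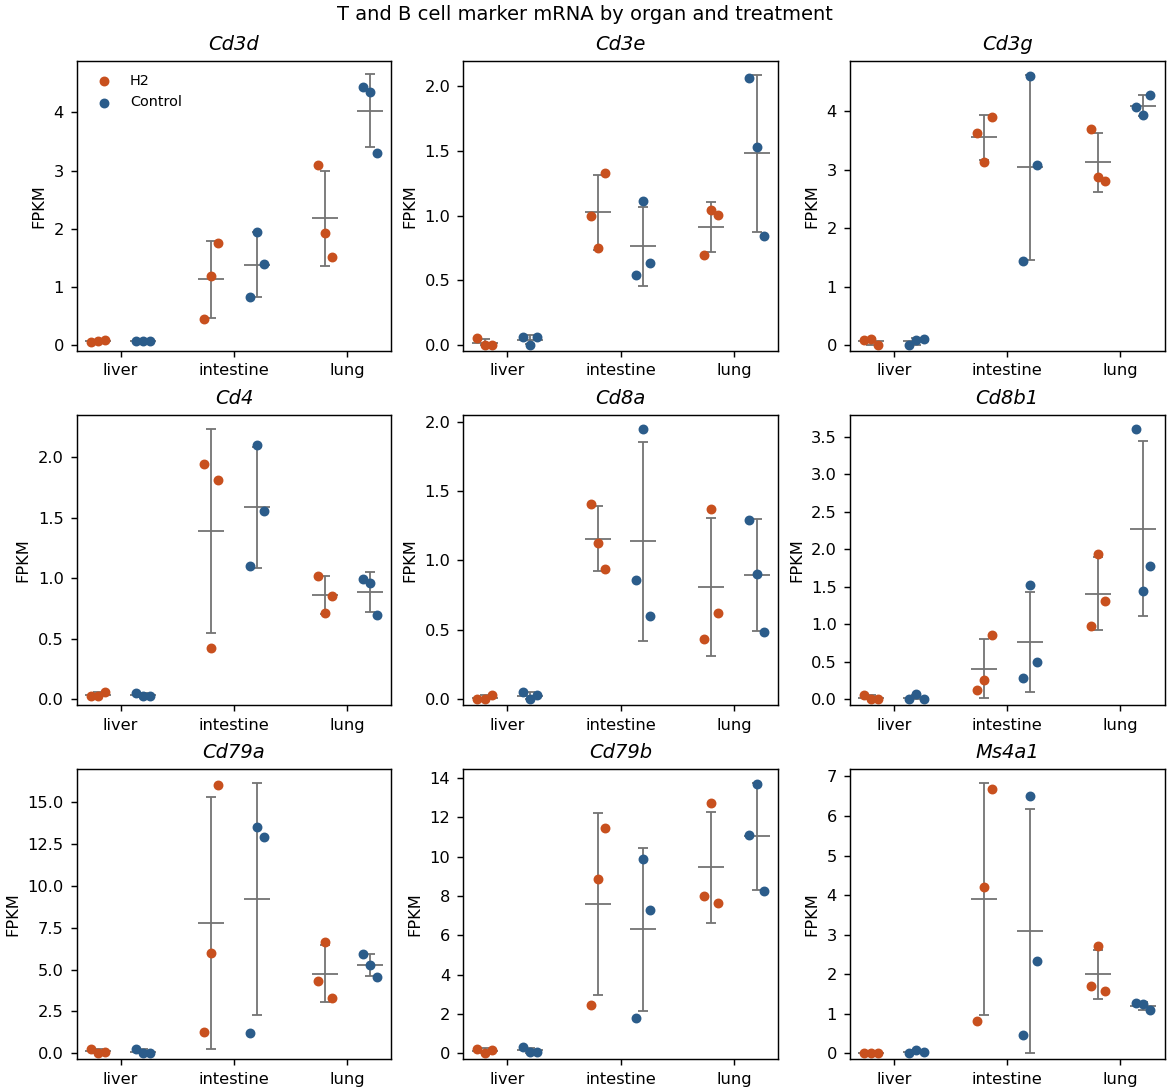
FPKM of each marker (1 panel per gene, linear axes of their own) in liver, intestine and lung, with H2 libraries left of control libraries as points, and grey dashes and bars giving the mean and 1 SD of n = 3, cut at 0. Liver points sit at the axis for every gene, intestine points of Cd79a, Cd79b and Ms4a1 are spread widely in both groups, and lung points of Cd3d and Cd3g are lower in H2.

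Within the intestine the order of mean levels over 6 libraries was led by the B cell genes, with Cd79a at 8.50 ± 6.53 FPKM (SD, n = 6), Cd79b at 6.94 ± 3.98 and Ms4a1 at 3.50 ± 2.74. Cd3g followed at 3.30 ± 1.07 FPKM, then Cd4 at 1.49 ± 0.63, Cd3d at 1.26 ± 0.56, Cd8a at 1.15 ± 0.48, Cd3e at 0.894 ± 0.302 and Cd8b1 at 0.588 ± 0.526. Neighbours in that order lay within the larger of their SDs, except Cd3g and Cd4, which stood 1.80 FPKM apart. In the lung Cd79b led at 10.2 ± 2.63 FPKM, followed by Cd79a at 5.01 ± 1.20, Cd3g at 3.61 ± 0.63 and Cd3d at 3.10 ± 1.20. Cd8b1 came next at 1.84 ± 0.93 FPKM, then Ms4a1 at 1.60 ± 0.59, Cd3e at 1.20 ± 0.51, Cd4 at 0.874 ± 0.144 and Cd8a at 0.851 ± 0.408. Neighbours stood apart by more than the larger of their SDs at 3 places, between Cd79b and Cd79a (5.22 FPKM), Cd79a and Cd3g (1.41 FPKM), and Cd3d and Cd8b1 (1.26 FPKM).

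Between lung and intestine 3 of the 9 markers were called, where 79.1% of all genes were (56.6% higher, 22.4% lower) and the median over all genes was 0.45. Cd3d was higher in the lung by 0.85 ± 0.16 (log2 ± SE, n = 6 each, adjusted p = 1.26e-04) and Cd8b1 by 0.84 ± 0.19 (adjusted p = 5.91e-04), and Cd4 was lower, at −0.37 ± 0.15 (adjusted p = 0.0343). Median-of-ratios scaling, which brought the median of all genes to 0.01, kept these 3 calls at 0.45, 0.51 and −0.57. Under that scaling Cd8a (−0.41, adjusted p = 0.0122) and Ms4a1 (−0.82, adjusted p = 0.0338) were also called lower in the lung. Quantile normalization ended the call of Cd3d (0.11, adjusted p = 0.540), and turned 2 others, calling them lower in the lung: Cd3e (0.20 as deposited, −0.37) and Cd3g (0.13 as deposited, −0.57, and −0.26 without a call under median-of-ratios scaling). Under quantile normalization Cd4 (−0.89, adjusted p = 3.31e-05), Cd8a (−0.72, adjusted p = 4.04e-04) and Ms4a1 (−1.14, adjusted p = 0.00559) were called lower too. In all, 5 of the 8 markers it could test were called, each lower in the lung. Cd3e did not reach the filter under median-of-ratios scaling, nor Cd8b1 under quantile normalization. The call of Cd4 was lost in 7 of 18 fits that left out 1 library, with adjusted p up to 0.1, and with a pseudocount of 0.1 (−0.58, adjusted p = 0.0763). With the replicate number as a block Cd4 was not called either (adjusted p = 0.0803), while Cd79b (0.67, adjusted p = 2.98e-04) and Ms4a1 (−0.54, adjusted p = 0.0208) were. The deposited intestine values carry up to 6 significant digits and those of liver and lung 3 decimals, and whether the organs were processed alike was not tested.

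Plain FPKM ratios between markers of 1 library do not depend on its scale, while tests on log2(FPKM + 1) do, most of all for low genes. Cd8b1 over Cd8a, the CD8 beta chain over the alpha chain, was 2.27, 1.41 and 2.11 in H2 lungs and 2.80, 1.59 and 3.69 in control lungs. It was 0.0846, 0.226 and 0.907 in H2 intestines and 0.321, 0.782 and 0.838 in control intestines. Every lung library lay above every intestine library. Cd8b1 in the intestine rests on about 2 to 27 implied fragments (median 5). Cd8b1 in the intestine and Cd8a in the lung both averaged under the filter of 1 FPKM. On log2(FPKM + 1) the mean difference was 1.06, with p = 0.002165 in an exact permutation test of n = 6 against 6 libraries (two-sided, the smallest p it can give; adjusted p = 0.007792 over 36 ratio tests). Without a pseudocount, a choice made after seeing the data that was applied to every ratio, it was 2.48 with the same p (adjusted p = 0.0111). Cd4 over Cd8a showed no such split, with 0.520 to 2.37 in the lung and 0.377 to 2.60 in the intestine (exact permutation p = 0.504, n = 6 against 6, adjusted p = 0.726).

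Set against CD45, 8 of 9 markers took a smaller share in the lung than in the intestine, and Cd8b1 depended on the pseudocount. The summed CD3 genes were 17.6% to 28.7% of the Ptprc level in the lung and 58.2% to 96.4% in the intestine. The summed B cell genes were 33.3% to 66.6% of it in the lung and 71.1% to 435% in the intestine. On log2(FPKM + 1) all 9 ratios to Ptprc were lower in the lung, from −1.46 for Cd3d to −2.85 for Ms4a1, each with the smallest p of the exact permutation test (p = 0.002165, n = 6 against 6, adjusted p = 0.007792). As plain FPKM, Cd8b1 was 2.85% to 6.58% of Ptprc in the lung and 2.27% to 17.8% in the intestine, and its difference was not called without a pseudocount (−0.47, adjusted p = 0.686) or with one of 0.1 (−0.75, adjusted p = 0.210). Without a pseudocount the other 8 stayed called, from −1.13 for Cd3d (adjusted p = 0.0346) to −3.10 for Cd4 (adjusted p = 0.0111). The plain shares of Cd3d, at 5.13% to 12.2% in the lung and 8.55% to 22.7% in the intestine, overlapped, as did those of Cd79b, at 20.2% to 38.4% and 36.8% to 163%. The shares of the other 6 genes did not overlap. Ptprc itself was 36.2 ± 9.52 FPKM in the lung and 6.47 ± 1.53 FPKM in the intestine (SD, n = 6 each). All 9 ratios share this denominator, so they are not separate results. Of 11 tested neutrophil genes, limma called 11 higher in the lung, with a median of 4.79, beside 56.6% called higher and a median of 0.45 over all genes. The part of other leukocytes in the Ptprc level was not tested, and a smaller share is not a count of fewer lymphocytes.

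In the intestine the H2 and control groups did not separate for any marker. Of 7 members tested there (Cd3e and Cd8b1 averaged under 1 FPKM), 0 were called by limma, 0 had an unadjusted p under 0.05 and 0 had ranges that did not overlap. The backgrounds were 0.0084% (1 gene, lower), 12.5% and 19.3% (10.6% higher, 8.75% lower) of 11910 genes tested. Log2 differences ran from −0.23 for Cd79a to 0.33 for Ms4a1, with a median of 0.06 beside 0.02 over all genes.

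Cd79a read 1.29, 6.02 and 16.0 FPKM in H2 intestines, against 1.20, 13.5 and 12.9 FPKM in control intestines. Cd79b read 2.48, 8.87 and 11.4 FPKM in H2 intestines, against 1.77, 9.86 and 7.26 FPKM in control intestines. Ms4a1 read 0.819, 4.19 and 6.68 FPKM in H2 intestines, against 0.452, 6.49 and 2.34 FPKM in control intestines. In all 3 B cell genes the library numbered 1 was the low one of both groups, and the ranges of the groups overlapped. The 95% intervals of the H2 difference were accordingly wide: −2.30 to 1.84 for Cd79a, −1.15 to 1.67 for Cd79b and −1.24 to 1.91 for Ms4a1, so that a log2 change of 1 in either direction lies within each of them.

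CD3 genes differed less between intestine libraries. Cd3g read 3.63, 3.13 and 3.90 FPKM in H2 intestines, against 1.44, 4.6 and 3.08 FPKM in control intestines. Cd3d read 0.45, 1.18 and 1.76 FPKM in H2 intestines, against 0.820, 1.95 and 1.39 FPKM in control intestines. The low library of both genes was again number 1 except for Cd3g in H2 intestines, and the ranges overlapped. Cd3e, with 0.998, 0.748 and 1.33 FPKM in H2 intestines and 0.545, 1.11 and 0.634 FPKM in control intestines, rests on about 8 to 20 implied fragments per library.

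Among the coreceptors, Cd4 read 1.95, 0.424 and 1.81 FPKM in H2 intestines, against 1.10, 2.10 and 1.56 FPKM in control intestines. Cd8a read 1.41, 1.12 and 0.940 FPKM in H2 intestines, against 0.862, 1.95 and 0.599 FPKM in control intestines. Cd8b1 read 0.119, 0.253 and 0.852 FPKM in H2 intestines, against 0.277, 1.53 and 0.502 FPKM in control intestines, on about 2 to 27 implied fragments. All 3 coreceptor ranges overlapped.

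**Figure D3:**
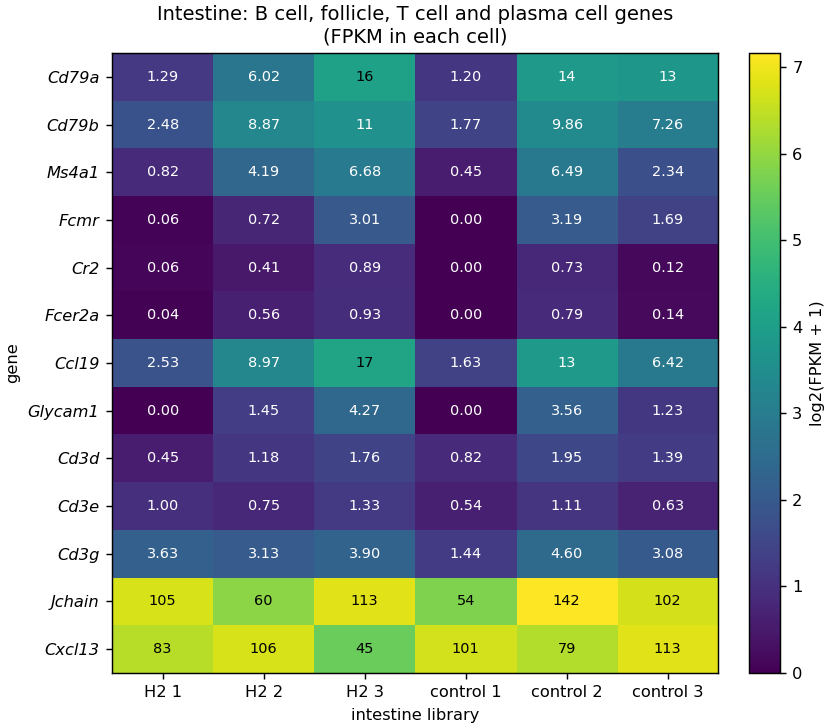
FPKM of B cell, lymphoid follicle, CD3 and plasma cell genes (rows) in the 6 intestine libraries (columns, H2 left of control), coloured by log2(FPKM + 1). The library numbered 1 is the lowest of its group for every gene from Cd79a down to Glycam1, and neither Jchain nor Cxcl13 is lowest in both.

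The library number marked the same split in other B cell genes, which was noticed after the values were seen and is given without a test. Both libraries numbered 1 lay below the other 4 for 3 of 3 B cell members, for 1 of the 4 T cell members tested and for 11 of 14 tested genes of B cell receptor signalling and identity, beside 6% of all genes tested in the intestine. Cr2, a complement receptor of mature B cells and follicular dendritic cells, read 0.0601, 0.408 and 0.887 FPKM in H2 intestines, against 0, 0.728 and 0.115 FPKM in control intestines.

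Genes of lymphoid tissue followed in part, with both libraries numbered 1 lowest for 3 of 9 tested follicle and lymph node genes. This held for 3 of 8 T cell receptor signalling and identity genes and 3 of 10 pan-leukocyte genes tested, beside 6% of all genes. Glycam1, a ligand on the venules through which lymphocytes enter lymph nodes, was listed at 0 in both libraries numbered 1 and read 1.45 and 4.27 FPKM in the other two H2 intestines, against 3.56 and 1.23 FPKM in the other two control intestines. Ccl19, which draws CCR7-bearing T cells and dendritic cells into lymphoid tissue, read 2.53, 8.97 and 17.3 FPKM in H2 intestines, against 1.63, 13.3 and 6.42 FPKM in control intestines. Jchain, which joins secreted IgA and IgM of plasma cells, did not follow the number, with 105, 59.6 and 113 FPKM in H2 intestines and 54.0, 142 and 102 FPKM in control intestines. None of 7 tested plasma cell genes had both libraries numbered 1 lowest. How much lymphoid follicle each piece of intestine held is not given, and its part in these levels was not tested.

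Without the libraries numbered 1 (n = 2 each, chosen after seeing the data), the H2 differences in the intestine were still not called. Cd3g and Cd8a then stood at −0.09 (adjusted p = 0.945) and −0.10 (adjusted p = 0.959), where they were 0.25 ± 0.29 and 0.06 ± 0.26 with all libraries.

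In the lung, CD3 genes read lower in H2 and Ms4a1 read higher, but no marker was called. Of 7 members tested (Cd4 and Cd8a averaged under 1 FPKM), 0 were called by limma beside 0.00745% of 13424 genes (1 gene, higher), and 3 had an unadjusted p under 0.05 beside 23.1%. The ranges of H2 and control did not overlap for 3 of 7, beside 30% of genes tested (15.9% lower, 14.1% higher). With 6 differences below 0 and 1 above, the members' median was −0.31, beside −0.00358 over all genes.

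Cd3d read 3.10, 1.93 and 1.52 FPKM in H2 lungs, against 4.43, 4.34 and 3.31 FPKM in control lungs. Every H2 lung was below every control lung, on about 29 to 70 implied fragments per library. The log2 difference was −0.68 ± 0.21 (SE, n = 3 each; limma, unadjusted p = 0.0136, adjusted p = 0.172). Without control lung 3 the difference was −0.79 and passed the threshold (adjusted p = 0.0445). That fit called 3295 of 13424 genes, beside 1 with all libraries. The other 5 fits without 1 library gave −0.88 to −0.53, with adjusted p of up to 0.415.

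Cd3g read 3.70, 2.87 and 2.81 FPKM in H2 lungs, against 4.07, 3.93 and 4.28 FPKM in control lungs, again without overlap (−0.31 ± 0.13, limma, adjusted p = 0.211). Cd3e read 0.694, 1.04 and 1.0 FPKM in H2 lungs, against 2.06, 1.53 and 0.846 FPKM in control lungs. Control lung 3 lay among the H2 lungs for Cd3e (−0.35 ± 0.21, limma, adjusted p = 0.339). Summed, the 3 CD3 genes came to 7.49, 5.84 and 5.33 FPKM in H2 lungs, against 10.6, 9.80 and 8.44 FPKM in control lungs.

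Of the CD8 chains, Cd8b1 read 0.976, 1.93 and 1.31 FPKM in H2 lungs, against 3.61, 1.44 and 1.78 FPKM in control lungs, with overlap (−0.41 ± 0.27, limma, adjusted p = 0.378). Cd8a read 0.431, 1.37 and 0.622 FPKM in H2 lungs, against 1.29, 0.905 and 0.483 FPKM in control lungs, also with overlap. Cd4 was the steadiest marker in the lung, with 1.02, 0.713 and 0.853 FPKM in H2 lungs and 0.997, 0.964 and 0.694 FPKM in control lungs, overlapping throughout.

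The B cell genes did not move as 1 group. Ms4a1 read 1.70, 2.71 and 1.59 FPKM in H2 lungs, against 1.27, 1.24 and 1.08 FPKM in control lungs, and every H2 lung was above every control lung (0.43 ± 0.17, limma, unadjusted p = 0.0438, adjusted p = 0.210). Cd79a read 4.33, 6.66 and 3.30 FPKM in H2 lungs, against 5.92, 5.29 and 4.58 FPKM in control lungs (−0.16 ± 0.22, limma, adjusted p = 0.666). Cd79b read 8.01, 12.7 and 7.64 FPKM in H2 lungs, against 11.1, 13.7 and 8.25 FPKM in control lungs (−0.21 ± 0.24, limma, adjusted p = 0.593). Both CD79 genes overlapped between groups, and the sum of the 3 B cell genes was 14, 22.1 and 12.5 FPKM in H2 lungs, against 18.3, 20.2 and 13.9 FPKM in control lungs.

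**Figure D4:**
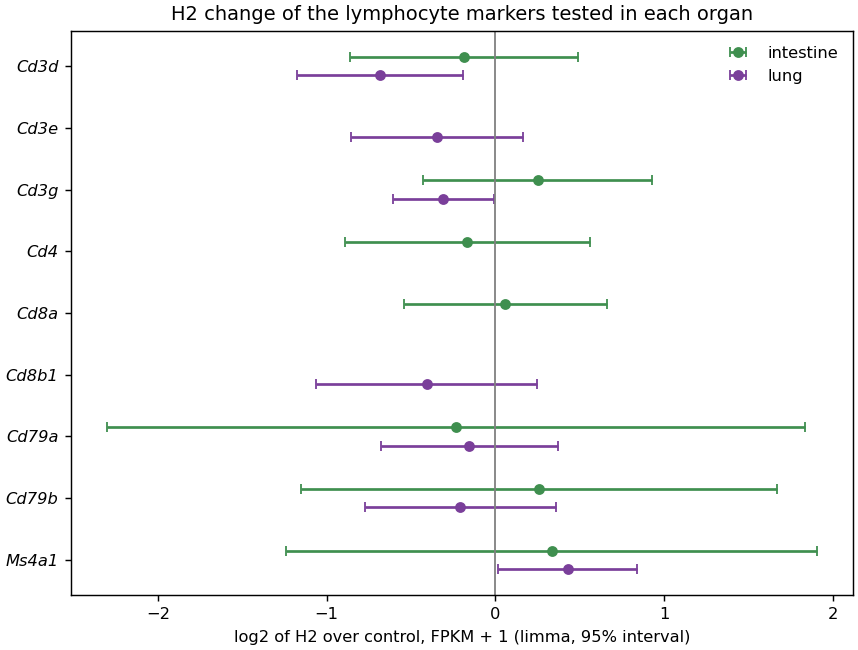
Log2 of H2 over control on FPKM + 1 for each marker tested in the intestine (green) and the lung (purple), as limma estimates with unadjusted 95% intervals, n = 3 each. The lung intervals of Cd3d and Cd3g lie below 0 and that of Ms4a1 above it, all with adjusted p of at least 0.172, and the intestine intervals of the B cell genes are the widest.

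Lists of other leukocyte genes and of another tissue were counted beside these values in the lung, with 0 genes called by limma. All 10 pan-leukocyte genes were below 0 with a median of −0.31, 5 of them with every H2 lung below every control lung. Limma called 0 of them and 5 had an unadjusted p under 0.05. Of all genes tested in the lung, 15.9% were lower in this way and 23.1% had such a p. Ptprc was among the overlapping ones, with 34.3, 33.1 and 29.6 FPKM in H2 lungs against 54.9, 35.7 and 29.4 FPKM in control lungs (−0.25 ± 0.22, limma, adjusted p = 0.489). Relative to Ptprc, Cd3d stood at −0.43 and Ms4a1 at 0.68 on the log2 scale, H2 over control lungs (exact permutation p = 0.2 and 0.1, n = 3 each, 0.1 being the smallest possible), and at −0.68 and 0.96 without a pseudocount, with the same p. None of the 24 H2-against-control ratio tests, 12 in the intestine and 12 in the lung, had an adjusted p under 0.05, which this design cannot reach. Of 11 tested neutrophil genes, 7 were above 0 and 4 below, with a median of 0.09. Limma called 0 of the 11, and 7 had an unadjusted p under 0.05, beside 23.1% of all genes. The 7 heart muscle genes, which include Myh6 and Tnnt2, summed to 456, 169 and 245 FPKM in H2 lungs, against 627, 724 and 648 FPKM in control lungs. Of these 7, limma called 0, and 6 were lower in every H2 lung, beside 15.9% of all genes. Their part in the marker values was not tested. Rag1 and Rag2, of developing thymocytes, were at 0 in every lung library. They belong to a list of 8 thymocyte genes that summed to 5.66 to 7.86 FPKM in lung libraries. Limma tested 2 of the 8 there and called 0.

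Genes that work with the markers were counted from lists made by name. Of 13 tested T cell receptor signalling and identity genes in the lung, limma called 0, 2 had an unadjusted p under 0.05 (beside 23.1% of all genes, the background for the B cell and activation lists in the lung too), 9 were below 0 and the median was −0.34. Lcp2, the adaptor SLP-76, read 11.7, 9.37 and 9.86 FPKM in H2 lungs, against 46.7, 23.5 and 13.3 FPKM in control lungs, and Zap70, the kinase that binds phosphorylated CD3 chains, read 2.88, 2.89 and 2.85 FPKM in H2 lungs, against 3.37, 4.35 and 3.98 FPKM in control lungs. Both ranges were lower in H2 without overlap (adjusted p = 0.183 and 0.187), as for 15.9% of all genes. Of 15 tested B cell genes, limma called 0, 3 had an unadjusted p under 0.05, 8 were above 0 and the median was 0.07. Cd22, an inhibitory receptor of B cells, read 1.57, 1.54 and 1.42 FPKM in H2 lungs, against 1.07, 1.04 and 0.966 FPKM in control lungs (adjusted p = 0.208), while Btk, a kinase of B cells and myeloid cells, read 5.97, 4.92 and 4.94 FPKM in H2 lungs, against 9.37, 7.66 and 6.70 FPKM in control lungs (adjusted p = 0.172). The activation and checkpoint genes of T cells were below 0 in 10 of 10 tested, with a median of −0.48, 0 called by limma and 1 with an unadjusted p under 0.05.

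**Figure D5:**
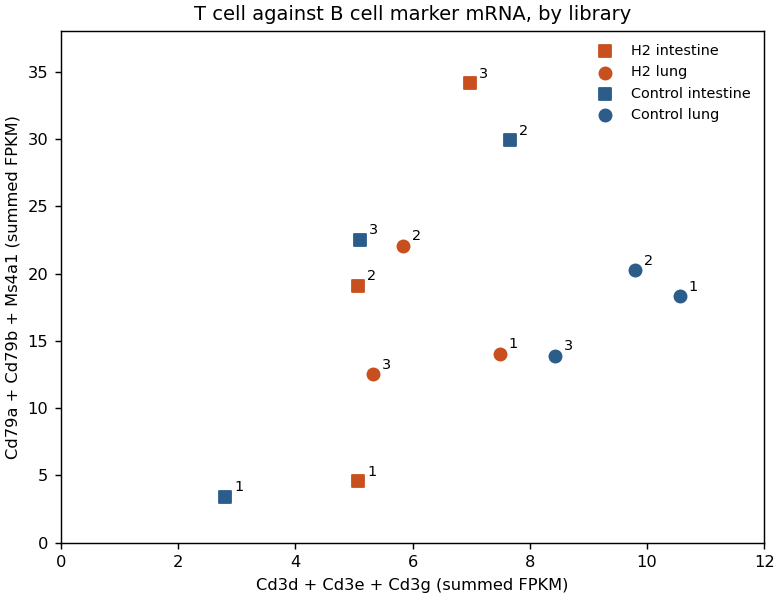
Summed FPKM of Cd3d, Cd3e and Cd3g (horizontal axis) against summed FPKM of Cd79a, Cd79b and Ms4a1 (vertical axis) in each intestine (squares) and lung library (circles), H2 in orange and control in blue, with the number of the library. H2 lungs lie left of control lungs at like heights, and both intestine libraries numbered 1 lie at the bottom.

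Over the mean of the 3 organ changes, 0 of 9 markers were called beside 8.74% of 14561 genes (4.06% higher, 4.68% lower), and 1 had an unadjusted p under 0.05 beside 30.1%. That was Cd3d, at −0.29 ± 0.13 (SE; limma, n = 9 each, adjusted p = 0.148). The others ran from −0.24 for Cd8b1 to 0.23 for Ms4a1, with a median of −0.06 beside 0.01 over all genes. The liver adds values near 0 to this mean. Over intestine and lung alone, chosen after seeing the data, Cd3d stood at −0.43 ± 0.16 (adjusted p = 0.110) and 0 of 9 were called, beside 3.72% of genes (1.57% higher, 2.15% lower). There too Cd3d was the one marker of 9 with an unadjusted p under 0.05, beside 24.6% of genes.

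Tests of the difference between organs in H2 change also called none of the 9. The lowest p was that of Cd3e for lung minus intestine, at −0.55 ± 0.24 (limma, unadjusted p = 0.0344, adjusted p = 0.207), followed by Cd3g at −0.56 ± 0.29 (adjusted p = 0.298). Called genes made up 1.66% of all genes for lung minus intestine (0.707% higher, 0.948% lower), 0.364% for lung minus liver (0.13% and 0.234%) and 0.254% for intestine minus liver (0.11% and 0.144%). At an unadjusted p under 0.05 there were 1 of 9 for lung minus intestine (Cd3e), 1 for lung minus liver (Cd3d, −0.69 ± 0.32, adjusted p = 0.371) and 0 for intestine minus liver, beside 20.4%, 12.9% and 15.1% of all genes. All 9 markers averaged under 1 FPKM in the liver and entered these tests through intestine or lung. Their liver values sat near 0 in both groups, so a difference from the liver largely repeats the change in the other organ. Without control lung 3 the Cd3e difference was −0.75 and passed the threshold (adjusted p = 0.0321). Fits of lung minus intestine without 1 library called 23 to 1403 genes in all, beside 241 with every library.

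Some genes beside the markers did pass the test over the 3 organs. The background is 8.74% of all genes called, 4.68% lower, and it applies to each list given here over the 3 organs. Of 10 tested activation and checkpoint genes, 2 were called and both were lower: Ctla4, a brake on T cell costimulation, by −0.46 ± 0.13 (adjusted p = 0.0448), and Cd44, an adhesion receptor of activated T cells and many other cells, by −0.65 ± 0.19 (adjusted p = 0.0497). All 10 were below 0, with a median of −0.38. Ctla4 read 0.312, 0.379 and 0.348 FPKM in H2 intestines, against 1.21, 0.930 and 1.76 FPKM in control intestines, without overlap. It read 0.974, 0.895 and 0.408 FPKM in H2 lungs, against 2.63, 1.99 and 0.559 FPKM in control lungs, with overlap. The call of Ctla4 ended in 14 of 17 fits that left out 1 library (adjusted p up to 0.0883) and that of Cd44 in 14 of 18 (adjusted p up to 0.102). Ctla4 was also not called with a pseudocount of 5 or no filter (adjusted p of 0.0571 and 0.0574), nor Cd44 with either other pseudocount, no filter, either scaling, or intestine and lung alone (adjusted p from 0.0516 to 0.0667).

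Of 16 T cell receptor and identity genes, 1 was called over the 3 organs, Lcp2 at −0.64 ± 0.19 (adjusted p = 0.0472). Its call was lost in 14 of 18 fits without 1 library and with either other pseudocount, no filter or median-of-ratios scaling (adjusted p from 0.0506 to 0.0651). Lcp2 read 1.86 to 2.68 FPKM in liver libraries, where CD3 genes were at no more than about 1 fragment. Which cells made it was not tested. Among 18 B cell genes limma called 0 and 1 had an unadjusted p under 0.05. Of 12 NK and cytotoxic genes 1 was called, Ccl5, a chemokine of T cells, NK cells and other cells, at −1.89 ± 0.31 (adjusted p = 0.00926). Ccl5 read 7.14, 4.74 and 8.77 FPKM in H2 intestines, against 31.1, 18 and 19 FPKM in control intestines, and 21.1, 22.2 and 30.2 FPKM in H2 lungs, against 130, 37.9 and 38.2 FPKM in control lungs. It was lower in every H2 library than in every control library of the same organ. Of 7 plasma cell genes 1 was called, Xbp1, a transcription factor of secretory cells, at −0.57 ± 0.11 (adjusted p = 0.0137), and Jchain and Mzb1 were not. Both calls held in all 18 fits that left out 1 library, and that of Ccl5 was lost over intestine and lung alone (adjusted p = 0.0558). Of 6 gamma-delta and intraepithelial T cell genes 1 was called, Fcer1g, the common chain of Fc receptors which myeloid cells also make, at −0.58 ± 0.13 (adjusted p = 0.0243, lost in 3 of 18 such fits and over intestine and lung alone, adjusted p = 0.0561). Of 9 follicle and lymph node genes 1 was called, Ltbr, the receptor of lymphotoxin, at −0.29 ± 0.09 (adjusted p = 0.0483). That call was lost in 15 of 18 such fits and under 5 other settings, among them intestine and lung alone (adjusted p = 0.0780). Limma called 0 of 9 homing genes and 0 of 8 dendritic cell genes, with 3 of each list at an unadjusted p under 0.05.

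Ccl19 and Cd37 were among the genes whose values followed the markers most closely from library to library, by deviations of log2(FPKM + 1) from the organ mean over n = 18 libraries and 9209 genes tested in every organ. For the mean of Cd3d, Cd3e and Cd3g the highest Pearson r were those of Glrx5 (0.896), Ccl19 (0.894), Set (0.869), Wbp5 (0.857) and Mrpl57 (0.852). For the mean of Cd79a, Cd79b and Ms4a1 they were those of Cd37 (0.901), a tetraspanin of leukocytes that is high in B cells, Ltb (0.813), Rexo2 (0.807), Tomm6os (0.805) and Pgrmc2 (0.799). In the lung Ccl19 read 26.4, 27.7 and 26.4 FPKM in H2 lungs, against 102, 72.9 and 35.4 FPKM in control lungs, without overlap. The libraries share their scaling, and the intestine libraries numbered 1 weigh in these values. Among the members themselves, Cd79b and Ms4a1 had r = 0.970 over the 6 intestine libraries, and Cd3d and Cd3g had r = 0.909 over the 6 lung libraries and 0.470 over the 6 intestine libraries. All these r include any difference between H2 and control libraries.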

How the data were processed

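Extraction used the miRNeasy Micro Kit and library preparation the TruSeq stranded mRNA kit, per the labels' protocols. The submitters' processing notes name TopHat2 2.0.13, Bowtie2 2.2.3, SAMtools 0.1.19, Cufflinks 2.2.1 and build mm10; which annotation they counted against is not given in the sources used here. In all, the authors deposited 1 column of FPKM per library, summing to between 709826 and 1142966. A further column in the table of control lung 2 repeats control lung 3, so 1 column was not used. Groups follow the sample titles, which the description fields of H2 replicates 2 and 3 do not spell alike.

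Values were tested as log2(FPKM + 1) by limma 3.58.1 (R 4.3.3, empirical Bayes with a trend, two-sided). Genes entered with a mean of at least 1 FPKM in the organ or, over all 18 libraries, in at least 1 organ. Adjusted p follows Benjamini and Hochberg across the whole tested table, and a gene is called under 0.05. Folds on this scale understate the change of low genes. Ratios were compared by exact permutation tests (scipy 1.17.1). On simulated lung data, 57% of genes given a log2 change of 1 and 90% of those given 2 were called among 13403 genes. In the intestine these were 50% and 86% among 11909. Changes were given only to genes with a mean log2(FPKM + 1) above 2, and noise was drawn for each gene separately. Spread shared by a whole library was left out. Cd3d, Cd3e, Cd8b1 and Ms4a1 in the lung and Cd3d, Cd4, Cd8a and Ms4a1 in the intestine averaged less, so these shares do not carry over to them. Named genes are the 9 members, Ptprc, up to 4 genes of smallest p per list described and the 5 genes most like the CD3 and B cell means. The organ markers, the genes given per intestine library, Jchain, Mzb1, Myh6, Tnnt2, Rag1 and Rag2 were added after values were seen. The members and lists were chosen with earlier results of these data known. Antigen receptor constant genes are not analysed here. Implied depths and fragments rest on the smallest FPKM steps and GENCODE vM21 transcript lengths, and carry no interval. Alternatives were pseudocounts of 0.1 and 5, no filter or 5 FPKM, median-of-ratios and quantile scaling, a replicate block, 1 fit of all 18 libraries within organs, and leaving out each library. Ratios without a pseudocount, intestine and lung alone, and the intestine without its libraries numbered 1 were added after seeing the data.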

Additional observations from a re-analysis of the deposited data

How the results depend on the processing

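No H2 difference of a marker was called under the other pseudocounts, filters, scalings, the replicate block or the 18-library fit, among the markers each could test. In the liver only the fits without a filter and of 18 libraries could test any. Elsewhere these were 2 of 9 with a mean of at least 5 FPKM, 8 over the 3 organs under either scaling, and, within the lung, 6 under median-of-ratios scaling and 4 under quantile normalization. Leaving out control lung 3 gave the calls of Cd3d and Cd3e in the report. Counts of all genes called moved more. In the liver 0 were called with a pseudocount of 0.1, without a filter, with a mean of at least 5 FPKM or with the replicate block, and 299 in the 18-library fit. In the intestine 3 were called with the replicate block, 264 in the 18-library fit and 6 without the libraries numbered 1, and in the lung 2 without a filter and 736 in the 18-library fit. Over the mean of the 3 organs 652 were called with the block and 542 over intestine and lung alone. For lung minus liver, lung minus intestine and intestine minus liver, pseudocount 5 gave 157, 526 and 70, no filter 120, 402 and 61, and a mean of at least 5 FPKM 16, 66 and 24. Pseudocount 0.1 gave 17 for lung minus liver and 30 for lung minus intestine, and the block 13 and 89. Median-of-ratios scaling gave 66 for lung minus intestine and 86 for intestine minus liver, and quantile normalization 60 for lung minus intestine. The cause was not tested.

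Fits without 1 library called 0 to 2834 genes in the liver (most without control liver 2), 2 to 28 in the intestine and 1 to 3295 in the lung (most without control lung 3). They called 309 to 3082 over the 3 organs, 2 to 859 for lung minus liver, 23 to 1403 for lung minus intestine and 12 to 812 for intestine minus liver.

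Signs turned only for differences not called as deposited. Without the intestine libraries numbered 1, Cd3g stood at −0.089 and Cd8a at −0.097. Cd79b over the 3 organs stood at −0.032 with a pseudocount of 0.1, −0.00082 with 5 and −0.041 under quantile normalization. Cd3e in the lung against the intestine stood at −0.37 under quantile normalization, and Cd3g at −0.26 under median-of-ratios scaling and −0.57 under quantile normalization. Fits without 1 library ranged in the intestine from −0.40 to 0.069 for Cd3d, −0.075 to 0.53 for Cd3g, −0.35 to 0.17 for Cd4, −0.12 to 0.13 for Cd8a, −1.13 to 0.52 for Cd79a, −0.33 to 0.82 for Cd79b, −0.26 to 0.93 for Ms4a1, −0.29 to 0.070 for Ptprc and −0.20 to 0.075 for Cd3d over Ptprc. In the lung Cd79a ranged from −0.38 to 0.035. Over the 3 organs they ranged from −0.13 to 0.071 for Cd3g, −0.12 to 0.053 for Cd4, −0.085 to 0.037 for Cd8a, −0.42 to 0.13 for Cd79a, −0.19 to 0.19 for Cd79b and −0.12 to 0.024 for Ptprc. In the lung against the intestine Cd3g ranged from −0.028 to 0.27 and Cd79a from −0.70 to 0.10.

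H2 and control libraries of 1 organ with the same number correlated between −0.11 and 0.33 in their deviations from the group means, and libraries of 2 organs with the same number and treatment between −0.26 and 0.27. For control liver and intestine, same-numbered pairs stood at 0.24, 0.27 and 0.13, and the others at −0.23 to 0.0038. Control liver and lung stood at 0.17, −0.073 and −0.26 by number, and liver 2 with lung 3 at 0.35. In the H2 groups, same-numbered pairs of organs stood at −0.14 to 0.066. Pairing was not tested. Whether organs share a mouse is not given, and the tests across organs treat the 18 libraries as separate. With the replicate block Cd79b (0.67, adjusted p = 2.98e-04) and Ms4a1 (−0.54, adjusted p = 0.0208) were called between lung and intestine, and Cd4 (adjusted p = 0.0803) and Ltbr over the 3 organs (adjusted p = 0.0890) were not. Liver marker values of 0 to 4 fragments limit any statement on lymphocytes there, and 3 libraries per group limit the rest.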
